A study of Arabidopsis thaliana with 6 samples.

Results

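Cytosolic 60S ribosomal protein genes encode the proteins of the large subunit of the ribosome that works in the cytosol. The list held 60 Arabidopsis loci, and 52 of them were named alone by a probe set in the platform annotation, each by a single probe set. The whole array named 13286 genes in this way. The 52 genes cover 26 of the proteins, 20 of them through 2 to 4 paralogues. The other 8 loci, AT1G74050, AT1G74060, AT4G36130, AT1G33120, AT1G70600, AT4G18100, AT5G46430 and AT3G59540, were not named alone and were not analysed here. The files pair these loci with no protein names, so proteins are given by the usual names of the Arabidopsis ribosomal protein families (L4, L13a and so on) as background knowledge.

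RNA came from whole rosettes, 5 to 6 weeks old, of Arabidopsis thaliana (Col-0) carrying pgm, a mutation that removes plastidic phosphoglucomutase and leaves almost no starch. All 3 groups carried this mutation, had been treated for 4 hours and held 2 biological replicates, lettered A and B. One group was lit under normal CO2, another was lit under low CO2, and the last was kept under low CO2 in a prolonged dark period. Rosettes were pooled: the labels' protocol names a harvest of 4 lots of 3 and the grinding of 15. RNA was hybridised to single-colour Affymetrix arrays, and each value is a linear MAS5 intensity. By its title, the study asked about responses to light and to sugar that the plant itself makes by fixing carbon.

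In plants the genes of each ribosomal protein form a small family of expressed copies, and a ribosome holds the product of 1 copy of most of them. Making ribosomes is among the largest costs of a growing cell, and in plants the transcription and translation of ribosomal protein genes are known to respond to sugar supply, in part through the TOR kinase. The proteins are imported into the nucleolus, where assembly factors join them to ribosomal RNA before the 60S subunit is exported.

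The arrays had a mean intensity of about 100.01 after trimming 2% of probe sets at each end and medians from 34.6 to 39.55. Replicates of 1 group correlated with r = 0.971 to 0.984 across probe sets. Of 16 leaf mesophyll markers 7 were measured, and their summed intensity was 17787.1 and 17884.7 in darkness, 17127.3 and 19564.5 in light at low CO2, and 17669.7 and 19119.7 at normal CO2, with none at 0. Single markers moved within this sum. LHCB4.3 read 352.2 and 376.2 in darkness, 740.7 and 1085.5 in light at low CO2, and 612.1 and 708.1 at normal CO2. LHCB4.2 went the other way, with 4169.5 and 4136.3, 3398.9 and 3498, and 3575.3 and 3636.7. Of 5 root markers 3 were measured, with sums of 323.6 to 577.3 over the arrays. EXPA7 and EXPA18, 2 expansins of root hairs, read 7.8 to 22.6. PYK10, the other measured root marker, read 295.7 to 542.6 and made up most of each sum. Of 6 flower and 2 phloem markers 0 were measured. Of 5 epidermis and guard cell markers only FMA was measured, at 51.1 and 50.6 under low CO2 in light and 74.6 and 67.5 at normal CO2.

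Most of the 60S genes had their highest transcript level at normal CO2 in light and their lowest at low CO2 in light, with darkness in between. Group means followed that order in 46 of the 52 genes, as they did in 17.5% of all tested probe sets. Summed over the 52 genes, intensity was 32566.6 and 37512.5 in darkness (replicates A and B), 27169.7 and 31563.2 in light at low CO2, and 48828.5 and 58530.5 at normal CO2 in light. The sum at normal CO2 was 1.80 times that at low CO2 in light in replicate A and 1.85 times in replicate B. In whole rosettes, fewer cells of a type and less RNA per cell cannot be told apart.

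**Figure D1:**
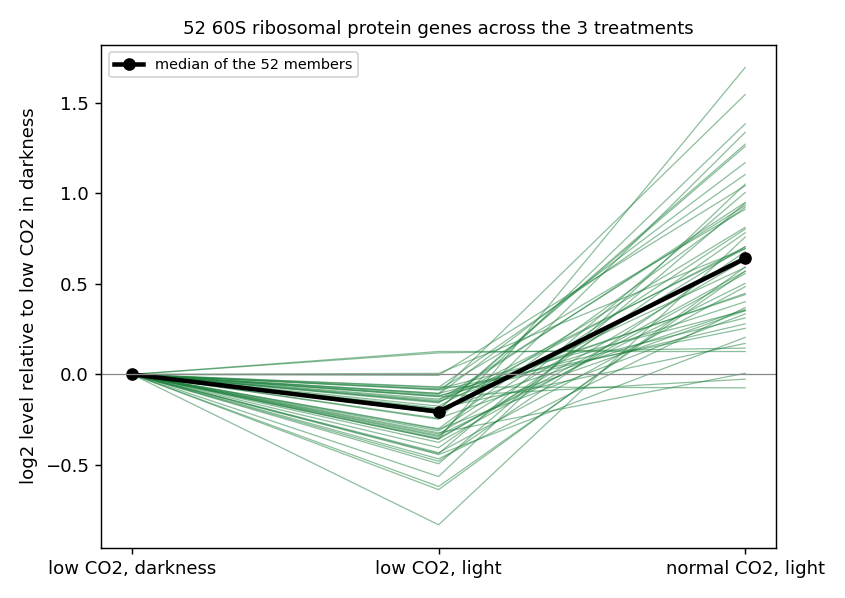
Mean log2(intensity + 7.3) of each of the 52 genes in the 3 treatments, relative to its mean at low CO2 in darkness (thin lines, n = 2 arrays per treatment), with the median of the genes (thick line). The median lies at -0.21 at low CO2 in light and at 0.64 at normal CO2 in light.

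The first comparison, called the CO2 step, set normal CO2 in light against low CO2 in light, and asks how transcripts differed with the CO2 supply. Of the 52 genes 32 rose and 0 fell (limma, adjusted p under 0.05 over 22746 probe sets), where 8.40% of all probe sets rose and 6.20% fell. The median log2 fold change of the 52 was 0.93, or 1.90-fold, against -0.01 over all tested probe sets. It was 0.84 within replicate A and 0.96 within replicate B. Changes ran from -0.01 to 2.05, and 23 of the genes rose at least 2-fold. In 48 of 52 both arrays of normal CO2 read above both of low CO2, where 29.6% of all probe sets did. Over all tested probe sets the split was 1911 higher to 1410 lower. With arrays shifted to a common median it was 1574 to 1742, and 31 of the 52 genes rose. The count rests on every array of the 2 groups: it was 20 without low CO2 in light A, 19 without its replicate B, and 0 without normal CO2 in light A or B. In those last fits 0 of 22746 probe sets passed, while 41 and 33 of the 52 had an unadjusted p under 0.05.

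**Figure D2:**
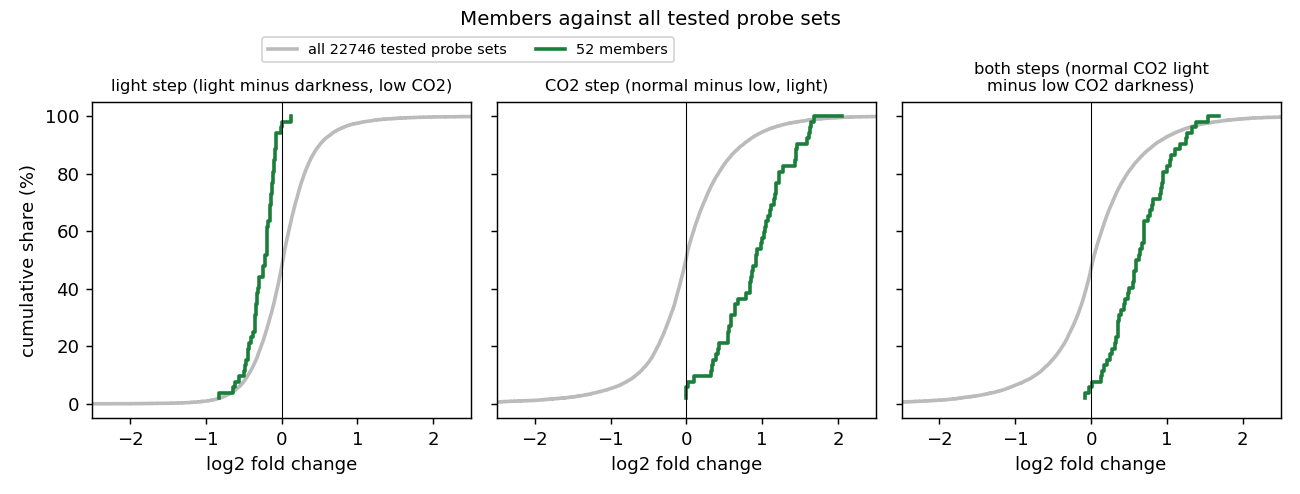
Cumulative share of genes (vertical axis, %) against log2 fold change (horizontal axis) for the 52 genes (green) and all 22746 tested probe sets (grey), in the light step, the CO2 step and both steps together. Most of the green curve lies to the right of the grey in the CO2 step (medians 0.93 and -0.01) and to its left in the light step (medians -0.21 and 0.02).

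Other measures moved with the CO2 step. Of 12 markers of dividing cells and meristem only PRL was measured. It encodes MCM7, a subunit of the helicase of DNA replication. Its intensity was 44.6 and 53.6 in darkness, 67.3 and 37.5 in light at low CO2, and 187.8 and 197.3 at normal CO2, a rise of 1.79 ± 0.26 on the log2 scale (SE, adjusted p = 0.0115). The ratio of 3 prime to 5 prime ubiquitin control probe sets, a sign of RNA integrity, was 1.48 and 1.39 in darkness, 1.44 and 1.38 under low CO2 in light, and 1.69 and 1.95 at normal CO2. The same ratio for actin was 1.97 and 2.34, 2.63 and 2.84, and 2.16 and 2.60, so normal CO2 had the higher ubiquitin ratio and, compared with the other lit group, the lower actin ratio. A second pair of ubiquitin probe sets gave 2.07 and 1.99 in darkness, 1.60 and 1.85 in light under low CO2, and 2.08 and 3.62 at normal CO2, where replicate B stood apart from the other 5 arrays. For GAPDH the groups overlapped in both available ratios, which ran from 1.51 to 2.11 and from 0.949 to 1.13. Their part in the changes of the ribosomal protein genes was not tested.

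The proteins that build the tunnel through which the new peptide leaves the ribosome included the 2 genes of the 52 with the largest rises. L4 and L17 line its wall, and L19, L26, L31 and L35 sit around its exit. Of their 12 genes among the 52, 8 rose, with a median log2 fold change of 0.96. That was close to the whole list, where 32 of 52 rose with a median of 0.93. AT3G16780 (L19, which also touches the 40S subunit) changed most of all 52 genes. It read 83.2 and 89.3 in darkness, 76.3 and 56.4 in light at low CO2, and 237.6 and 366.3 at normal CO2. Its rise in the CO2 step was 2.05 ± 0.24 (adjusted p = 0.00809). AT5G67510 (L26) followed with 225.4 and 215.6, 179.2 and 165.6, and 447.3 and 719.4 in the same order of groups, a rise of 1.68 ± 0.23 (adjusted p = 0.00997). In both genes the arrays of normal CO2 stood clear of the other 4, and replicate B was the higher at normal CO2.

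Both genes of L4 rose, by 1.08 ± 0.18 (AT5G02870, adjusted p = 0.0158) and 0.88 ± 0.18 (AT3G09630, adjusted p = 0.0265). Both genes of L17 did so too, by 1.11 ± 0.14 (AT1G27400, adjusted p = 0.00869) and 0.92 ± 0.18 (AT1G67430, adjusted p = 0.0245). Of the 3 L31 genes and the 2 L35 genes among the 52, 1 of each protein rose. These were AT4G26230 (L31), by 1.03 ± 0.19 (adjusted p = 0.0201), and AT2G39390 (L35), by 1.99-fold (SE 0.24 on the log2 scale, adjusted p = 0.0411). The call of AT2G39390 was lost when arrays were shifted to a common median (adjusted p = 0.0526) and without the mean-variance trend (adjusted p = 0.0550).

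Proteins near the site where elongation factors bind also had rising genes, as did all but 3 of the 26 proteins that the 52 genes cover. L12 forms the base of the stalk that recruits these factors. AT5G60670 (L12) read 365.4 and 359.0 in darkness, 289.0 and 243.9 in light at low CO2, and 768.5 and 700.3 at normal CO2, and rose by 1.44 ± 0.14 (adjusted p = 0.00624). AT3G53430 (L12) rose by 1.03 ± 0.13, and AT2G37190, the other L12 gene, had 0.79 ± 0.22 (adjusted p = 0.0668). AT4G10450 (L9), whose protein lies close to the same site, rose by 1.44 ± 0.15 (adjusted p = 0.00712). It went from 121.0 and 114.1 at low CO2 in light to 328.4 and 333.2, above the 149.1 and 190.0 of darkness.

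L14, L36 and L35a have no counterpart in bacteria and lie in the outer layers of the subunit. Each had a gene among the 5 largest rises of the 52 genes. AT2G20450 (L14) read 119.7 and 162.5 in darkness, 132.0 and 126.4 in light at low CO2, and 352.0 and 503.4 at normal CO2 (1.65 ± 0.22, adjusted p = 0.00985). AT2G37600 (L36) read 118.9 and 121.7, 109.6 and 91.5, and 298.1 and 355.0 (1.63 ± 0.16, adjusted p = 0.00624). AT1G07070 (L35a) read 74.7 and 99.8, 57.1 and 55.1, and 153.4 and 226.9 (1.61 ± 0.23, adjusted p = 0.0111). None of these 3 genes had overlapping arrays between normal CO2 and either other group.

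L13a is a protein found in all domains of life, and 2 of its 4 genes rose. AT3G07110 read 803.6 and 802.5 in darkness, 490.3 and 410.2 in light at low CO2, and 1197.7 and 1551.0 at normal CO2 (1.59 ± 0.17, adjusted p = 0.00739). AT4G13170 read 171.7 and 142.0, 153.4 and 120.0, and 333.8 and 448.5 (1.46 ± 0.21, adjusted p = 0.0105). AT1G26880 (L34) read 454.1 and 526.3, 424.6 and 427.4, and 1023.4 and 1359.4 (1.45 ± 0.17, adjusted p = 0.00825). Of these 3 genes AT3G07110 had the widest gap between darkness and low CO2 in light. Proteins with a counterpart in bacteria had 13 of 20 genes rising (median 0.96), and those shared by eukaryotes, some with archaea, had 19 of 32 (median 0.93).

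**Figure D3:**
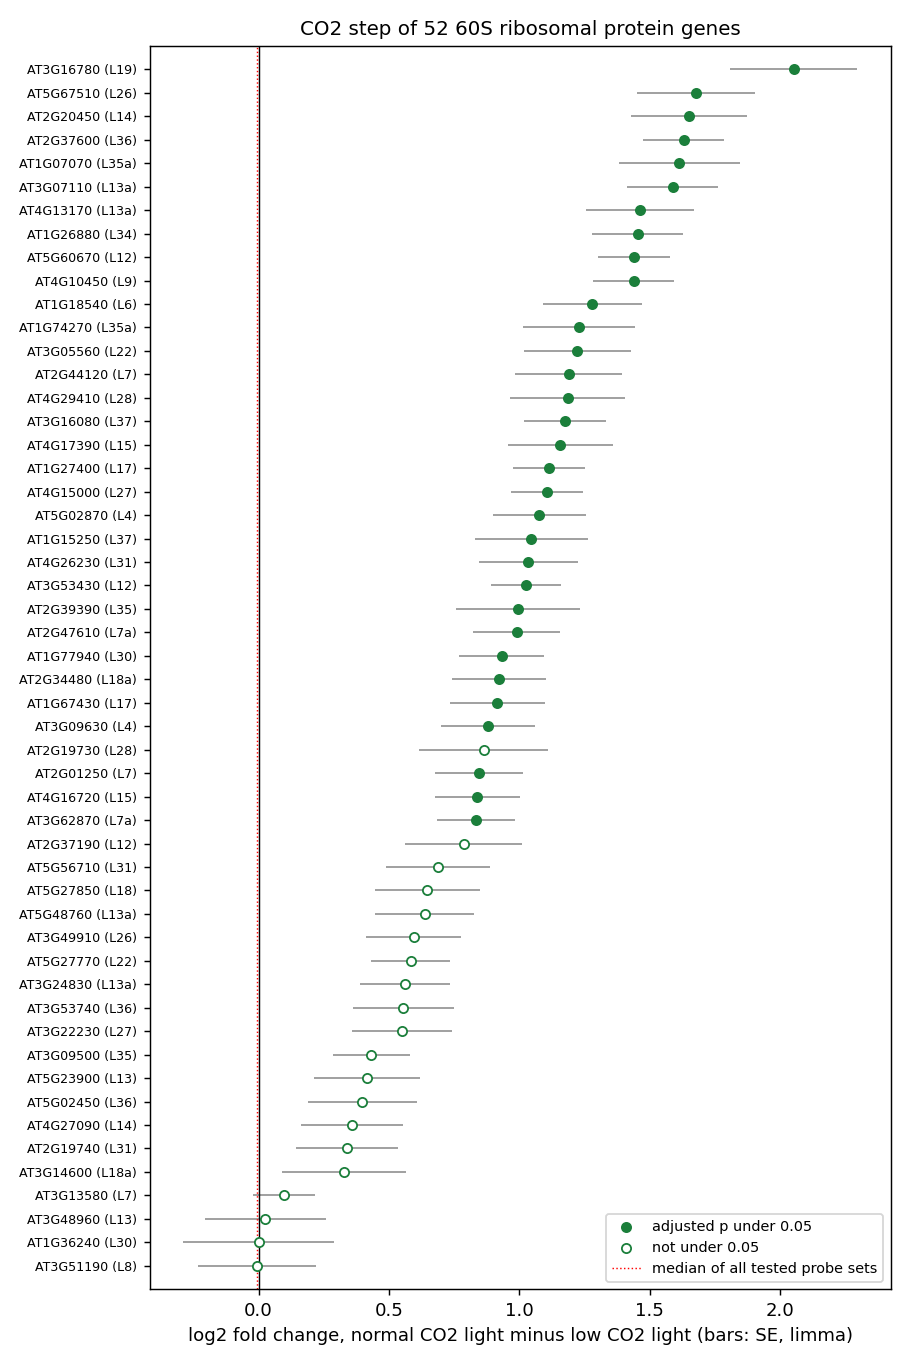
Log2 fold change of each of the 52 genes in the CO2 step (horizontal axis, bars are the SE of the limma model, n = 2 arrays per group), ordered by size, with the protein in brackets. Filled points are the 32 genes with an adjusted p under 0.05, from 0.83 to 2.05, and open points the other 20.

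The remaining 20 genes did not pass, and in 16 of them both arrays of normal CO2 still read above both of low CO2 in light. Of the 8 with the smallest change, 3 were dim throughout. AT3G51190 (L8, whose protein lies beside the catalytic centre) read 27.7 and 22.6 in darkness, 22.7 and 24.4 in light at low CO2, and 27.8 and 19.6 at normal CO2, a change of -0.01 ± 0.23 (adjusted p = 0.995). AT1G36240 (L30, a protein that in yeast also binds its own transcript) read 26.6 and 24.0, 26.5 and 30.1, and 39.0 and 20. AT3G48960 (L13) read 11.1 and 16.4, 13.1 and 17.9, and 17.5 and 14.2. For these 3 genes the treatments overlapped on the arrays, at intensities where the pseudocount of 7.3 shrinks any change.

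The other 5 genes of smallest change were bright. AT3G13580 (L7) read 427.5 and 433.2 in darkness, 381.8 and 407.8 in light at low CO2, and 415.7 and 429.2 at normal CO2 (0.10 ± 0.12, adjusted p = 0.662). Its 6 arrays lay within a narrow band, and its SE was the smallest of the 52. AT3G14600 (L18a) read 600.5 and 831.7, 481.4 and 660.2, and 628.3 and 801.8 (0.33 ± 0.24), with overlap between all groups. AT2G19740 (L31) read 277.6 and 350.4, 250.3 and 343.9, and 363.1 and 383.9 (0.34 ± 0.20). AT4G27090 (L14) read 1640.3 and 1822.4, 1280.4 and 1800.0, and 1951.7 and 1943.3 (0.36 ± 0.20). In these genes replicate A of low CO2 in light was the lowest array, and its replicate B came close to normal CO2. AT5G02450 (L36) showed this too, with 703.2 and 792.8, 561.4 and 841.3, and 881.8 and 933.9 (0.40 ± 0.21, adjusted p = 0.270).

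**Figure D4:**
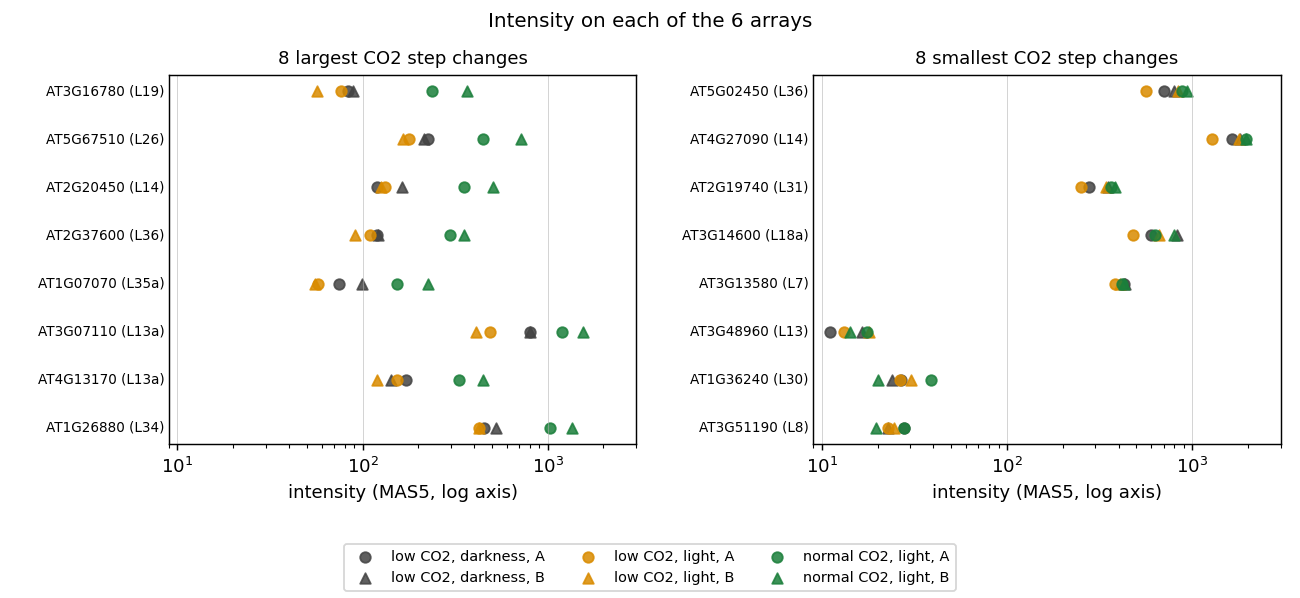
Intensity on each of the 6 arrays (log axis) for the 8 genes with the largest and the 8 with the smallest change in the CO2 step. Circles are replicate A and triangles replicate B, and colours mark the treatment. On the left both green points lie apart from all others, as in AT3G16780 with 237.6 and 366.3 against 56.4 to 89.3, and on the right the treatments lie close together or overlap.

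Paralogues of the same protein differed in how far they changed. Of the 20 proteins with several genes among the 52, 6 had all of these rise (L4, L7a, L15, L17, L35a and L37), 13 had some, and L13 had 0. Measured paralogues outside the 52, such as AT2G32220 of L27, were left out of these counts and of the pairs. The 33 pairs of paralogues differed in their CO2 step change by 0.08 to 1.29 on the log2 scale, with a median of 0.56. The 1293 pairs of genes of different proteins differed by a median of 0.47. Pairs that differed by at least 1 made up 18.2% of the first and 14.9% of the second. For each pair the change in the ratio of the paralogues was computed within arrays. It is given with its SE from the linear model. The exact two-sided permutation test used for it gave p = 0.333 for each of the 6 pairs below, the smallest it allows with 2 arrays against 2, so this test could call no pair. The 6 pairs are those of the 33 that differed most, and their sizes are a description.

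Of these pairs the one of L14 differed most. AT2G20450 changed by 1.29 ± 0.33 (SE) more than AT4G27090 (0.76 within replicate A, 1.82 within B). In L36, AT2G37600 changed by 1.23 ± 0.35 more than AT5G02450 and by 1.08 ± 0.28 more than AT3G53740. The latter read 984.7 and 1160.6 in darkness, 806.7 and 1076.6 in light at low CO2, and 1274.2 and 1478.0 at normal CO2. In both proteins 1 gene rose more than 2-fold while its paralogues stayed within 1.5-fold.

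In L7, AT2G44120 changed by 1.09 ± 0.21 more than AT3G13580, with 0.94 and 1.24 in the replicates. AT2G44120 read 280.8 and 336.5 in darkness, 182.0 and 214.6 in light at low CO2, and 387.4 and 545.5 at normal CO2, and rose by 1.19 ± 0.20 (adjusted p = 0.0170). The remaining L7 gene of the 52, AT2G01250, rose by 0.85 ± 0.17 (adjusted p = 0.0247), with the same size in both replicates. In L26, AT5G67510 changed by 1.08 ± 0.28 more than AT3G49910, which read 1775.2 and 1913.4, 1373.5 and 1763.9, and 2192.3 and 2526.1. In L13a, AT3G07110 changed by 1.03 ± 0.17 more than AT3G24830, which read 1371.9 and 1432.9, 1216.5 and 1365.0, and 1687.2 and 2151.0. AT3G49910 and AT3G24830 were both higher on each array of normal CO2 than on any other array, with changes of 0.59 and 0.56 that did not pass.

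**Figure D5:**
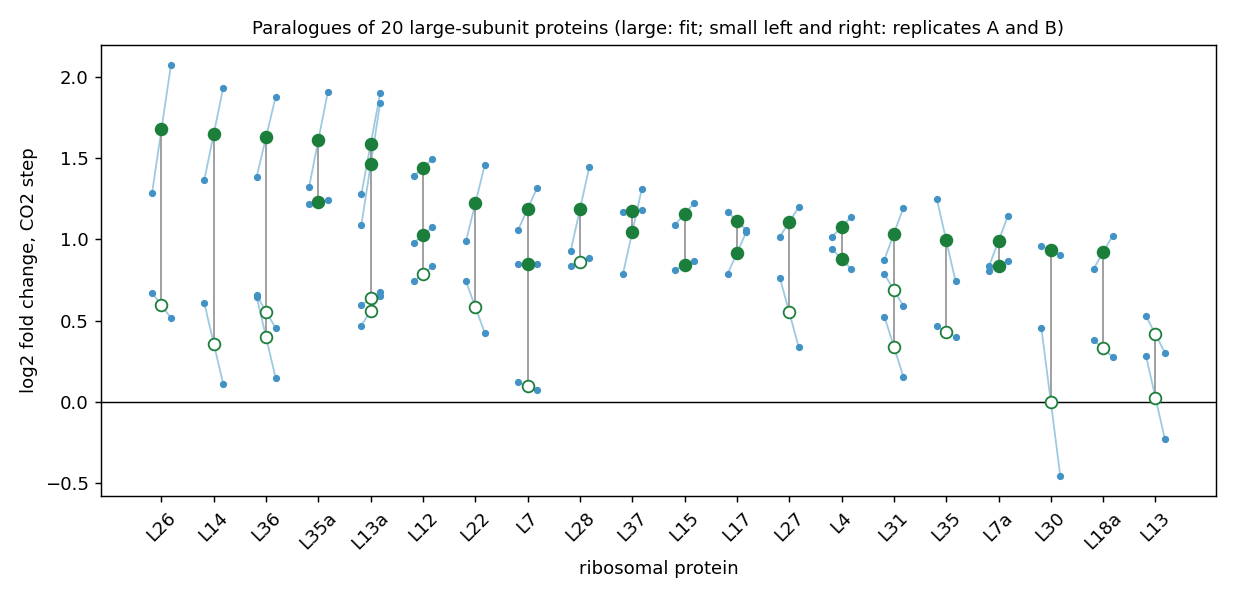
Log2 fold change in the CO2 step (vertical axis) for the genes of the 20 proteins with several paralogues among the 52 (horizontal axis). Large points are the fitted changes, filled where the adjusted p was under 0.05. Small points to their left and right are replicates A and B alone. The widest spans are those of L14 (0.36 to 1.65) and L36 (0.40 to 1.63), and that of L37 (1.05 to 1.17) is the narrowest.

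Among the 52 genes, paralogues with close changes were those of L37, where AT3G16080 rose by 1.17 ± 0.16 and AT1G15250, a dim probe set, by 1.05 ± 0.22. Their difference was 0.39 within replicate A and -0.13 within replicate B. Changes were also close in L7a (0.99 and 0.83), and in L4 and L17, whose genes differed by 0.20 in each protein. Probe sets differ in brightness for reasons other than transcript level, so levels of paralogues are not compared. Over the 48 genes with a mean intensity of at least 50, the CO2 step change fell with mean brightness across genes (Spearman rho = -0.47). Over the 10201 probe sets of that brightness on the array rho was -0.07. Genes share the same 6 arrays and are not independent. In 19 of the 33 pairs the dimmer probe set had the larger change. All 52 probe sets carry the plain suffix that the array's design gives to sets meant for 1 transcript. Whether probes also bind paralogous transcripts was not tested.

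AT2G19730 (L28) and AT2G19740 (L31) are the only measured genes of the list that are next to each other among protein-coding genes of the TAIR10.1 gene table. Their CO2 step changes were 0.86 ± 0.25 (adjusted p = 0.0681) and 0.34 ± 0.20 (adjusted p = 0.313). Neither passed. AT4G29410, the other L28 gene, rose by 1.19 ± 0.22 (adjusted p = 0.0208). Its change was 0.32 ± 0.16 larger than that of AT2G19730 (0.09 within replicate A, 0.56 within B).

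The second comparison, the light step, set low CO2 in light against low CO2 in darkness, and asks how light differed from darkness while CO2 was low. None of the 52 genes passed in either direction with limma, where 0.849% of all probe sets rose and 0.193% fell. An unadjusted p under 0.05 was found for 7 of the 52, or 13.5%, and for 16.5% of all tested probe sets. That number of genes was 14 with quantile normalization, 1 without darkness B and 3 without low CO2 in light A. The log2 changes were small and mostly negative: 49 of 52 were below 0, with a median of -0.21 against 0.02 over all probe sets. The number above 0 grew from 3 to 14 without low CO2 in light A and to 11 without darkness B. The median was -0.23 within replicate A and -0.26 within replicate B. In 27 genes both arrays of light read below both of darkness, where 22.5% of all probe sets did, and in 0 genes above.

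The 4 most negative changes were in L13a, L35a and L7 genes. AT3G07110 (L13a) had -0.83 ± 0.17 (adjusted p = 0.0867), from 803.6 and 802.5 in darkness to 490.3 and 410.2. AT1G74270 (L35a) read 184.8 and 222.9 in darkness, 110.7 and 147.9 in light at low CO2, and 267.2 and 359.2 at normal CO2. Its light step change was -0.64 ± 0.21 (adjusted p = 0.214). AT2G44120 (L7) had -0.62 ± 0.20 and AT1G07070 (L35a) -0.56 ± 0.23. In all 4 genes the arrays of light at low CO2 were the lowest of the 6. AT3G07110 passed as the only one of the 52 when probe sets with a mean under 50 were left out (adjusted p = 0.0470).

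At the other end AT1G36240 (L30) had 0.13 ± 0.29, AT3G48960 (L13) 0.12 ± 0.23, AT5G56710 (L31) 0.01 ± 0.20 and AT1G15250 (L37) -0.01 ± 0.22. AT5G56710 read 730.7 and 893.2 in darkness, 700.4 and 939.3 in light at low CO2, and 1212.7 and 1418.1 at normal CO2. AT1G15250, a dim probe set, read 24.3 and 25.8, 26.3 and 23.6, and 50.6 and 69.2. In both genes darkness and low CO2 in light overlapped, and both read higher on both arrays of normal CO2.

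The same genes were compared directly between normal CO2 in light and low CO2 in darkness, which joins both steps. Of the 52 genes 23 rose and 0 fell, where 11.3% of all probe sets rose and 9.13% fell. The median log2 fold change was 0.64, or 1.56-fold, against 0.03 over all probe sets. All 23 also rose in the CO2 step, with which this comparison shares the arrays of normal CO2. The largest rises were 1.69 ± 0.24 for AT3G16780 (L19, adjusted p = 0.00710), 1.54 ± 0.22 for AT2G20450 (L14, adjusted p = 0.00706) and 1.38 ± 0.16 for AT2G37600 (L36, adjusted p = 0.00429). AT3G07110 (L13a), whose light step change was negative, rose by 0.76 ± 0.17 (adjusted p = 0.0286). In 46 of 52 genes both arrays of normal CO2 read above both of darkness, where 31.8% of all probe sets did. The count was 11 and 9 without replicate A or B of darkness, 9 without normal CO2 in light A and 0 without its replicate B.

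The signed difference of both steps, the CO2 step change minus the light step change, was also tested. The light step change was negative in 49 of the 52 genes. In all of these but AT3G51190 the CO2 step change was positive, so the signed difference adds the sizes of both changes. The signed difference also counts the arrays of low CO2 in light in both steps. It therefore does not compare the sizes of the steps. The signed difference passed for 5 of the 52 genes, where it passed with a positive sign for 0.673% of all probe sets and with a negative sign for 1.21% of them, and for 0 of the 52. They were AT3G07110 (L13a, 2.42 ± 0.30, adjusted p = 0.0388), AT5G60670 (L12, 1.88 ± 0.24, adjusted p = 0.0388), AT4G10450 (L9, 1.93 ± 0.27, adjusted p = 0.0424), AT2G37600 (L36, 1.88 ± 0.27, adjusted p = 0.0445) and AT1G27400 (L17, 1.42 ± 0.24, adjusted p = 0.0495). AT3G16780 (L19) had a difference of 2.41 ± 0.42 that missed the threshold (adjusted p = 0.0517). Over the 52 genes the median difference was 1.23. This count depended on the settings and was 0 without any 1 of the 6 arrays.

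Replicate B was brighter than replicate A in most of the 52 genes in every group: in 44 in darkness, 40 in light at low CO2, and 43 at normal CO2. Among all tested probe sets it was brighter in 47%, 54.2% and 37.6%. Each letter holds all 3 groups, and in the CO2 step 52 of 52 genes were higher at normal CO2 within replicate A and 49 of 52 within replicate B.

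Other genes of the ribosome and its assembly were read beside these. Over all tested probe sets 8.40% rose and 6.20% fell in the CO2 step, with a median log2 fold change of -0.01. All 13 genes of the stalk P proteins, which bind elongation factors at the tip of the 60S stalk, were measured, and 9 rose in the CO2 step (median 0.88). AT3G44590 rose by 1.64 ± 0.17, from 154.2 and 159.4 to 430.1 and 590.9. AT2G27710 read 582.9 and 475.6 in light at low CO2, and 1315.2 and 1711.5 at normal CO2 (adjusted p = 0.00839). Of 55 further 60S genes 15 were measured and 8 rose (median 0.87), led by AT3G06680, an L29 gene (1.77 ± 0.17), and AT2G32220, an L27 gene (1.68 ± 0.25).

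Of 86 genes of the 40S subunit 42 were measured and 21 rose (median 0.76), with AT3G57490 at 2.03 ± 0.19 and AT4G30800 at 1.90 ± 0.20. Of 20 factors of 60S assembly and export 9 were measured and all 9 rose (median 1.74), with AT2G40360 at 2.04 ± 0.30 and AT3G23620 at 2.03 ± 0.19. Of 24 nuclear genes for the large subunit of the plastid ribosome 6 were measured and 1 rose (median 0.38), AT4G17560 by 0.51 ± 0.13. In none of these 5 lists did a gene fall in the CO2 step or pass in the light step in either direction. Differences between the lists were not tested.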

How the data were processed

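Transcripts were measured on 6 single-colour Affymetrix arrays, 3 groups of 2. The authors deposited an intensity on a linear scale for each probe set, made with MAS5, per the submitters' processing notes. Its version and scaling target were not stated there. Trimmed means were equal, so no normalization was added. Arrays give no depth, and their number limits the precision.

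Of 22810 probe sets 64 controls were left out. Names came from the platform annotation, matched by Entrez ID to the TAIR10.1 gene table, 1 probe set per gene. Values were transformed as log2(intensity + 7.3), the 20th percentile of tested values, and fitted with limma 3.58.1 in R 4.3.3 (3 group means, eBayes with trend, 3 residual degrees of freedom, Benjamini-Hochberg over 22746 probe sets, threshold 0.05). All adjusted p-values come from this model. Fold changes are on that scale, which understates dim genes. Alternatives were pseudocounts of 1 and 32, a common median, quantile normalization, a filter on dim probe sets, the replicate letter as a block, no trend, fewer arrays and each array left out.

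Members and lists were chosen with earlier results of these data known. Values on every array are given for the 8 largest and 8 smallest CO2 step changes and the 4 at each end of the light step. The same holds for the 6 most different paralogue pairs. It also holds for AT5G60670 (L12) and AT4G10450 (L9), ranked 9 and 10 in the CO2 step. Other lists are given by counts with at most 2 genes.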

Additional observations from a re-analysis of the deposited data

How the results depend on the processing

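In the CO2 step 31 to 41 of the 52 genes rose and 0 fell under every alternative that kept all arrays of both groups (39 of 48 with the filter on dim probe sets), and 0 to 31 rose with 1 array left out. The median log2 change was 0.78 to 1.10 with 1 array left out. In both steps together 17 to 34 rose with all arrays, 0 to 22 rose with 1 array left out, and the median was 0.48 to 0.80, or 0.54 with a common median. With 1 array left out the light step median lay between -0.35 and -0.16 (-0.23 with a common median), with 0 genes passing. With the filter on dim probe sets 1 gene fell. The genes passing for the signed difference of the steps numbered 28 with that filter, 20 with the replicate block, 9 with a pseudocount of 1, 9 with quantile normalization, 2 with a pseudocount of 32 and 0 without the trend, against 5, and 0 with 1 array left out (median 1.04 to 1.34). The cause was not tested.

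The letters A and B name samples and were not shown to pair them: the deviations of same-lettered arrays from their group means correlated at 0.31, 0.16 and 0.02 over all probe sets for the 3 pairs of groups. Over the 52 genes these values were 0.41, 0.18 and -0.21, the last for the 2 lit groups of the CO2 step. With the replicate block 41 of the 52 genes rose in the CO2 step, against 32, and 34 in both steps together, against 23. The array as a whole had 2273 higher and 1687 lower in the CO2 step, and 338 and 137 in the light step, against 193 and 44. In the light step 0 of the 52 passed with the block, and 17 had an unadjusted p under 0.05, against 7.

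The 6 paralogue differences were chosen as the largest of the 33 pairs. They equal their main values by construction with the replicate block and without either array of darkness. With 1 array left out they ran from 1.02 to 1.57 for L14, 0.82 to 1.64 and 0.75 to 1.40 for L36, 0.87 to 1.31 for L7, 0.85 to 1.32 for L26 and 0.82 to 1.24 for L13a. Of 724 values of single genes in the CO2 step 10 changed sign, all of genes near 0. AT3G51190 had 0.00014 with a pseudocount of 32, 0.00273 with quantile normalization and -0.20 to 0.19 with 1 array left out, AT1G36240 had 0.012 with a pseudocount of 32 and -0.38 to 0.38, and AT3G48960 had -0.047 with a common median and -0.13 to 0.18. In the light step AT5G56710 had -0.019 with a common median, -0.033 with quantile normalization and -0.20 to 0.22, AT1G15250 had -0.066 to 0.055, and AT3G48960 had -0.064 to 0.30. The choice of probe set changed nothing, since each gene had 1. Genes with a mean under 50, 4 of the 52, are limited by their dim signal.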
